A study of Mus musculus with 42 samples.

Results

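The genes described here are those expressed in late 2-cell mouse embryos with or without trichostatin A (TSA), an inhibitor of the class I and class II histone deacetylases. A gene was a member when it reached 1 FPKM per library in the TSA library or in the late 2-cell control. Of the 15737 genes listed, 9420 did so. The listed genes that could be placed lie on chromosomes 1 to 11, so counts and list sizes below are not genome-wide. FPKM is the number of reads per length of exon and per library depth, so it is a level per length. Both groups were ICR mouse embryos collected 48 h after hCG, the hormone given to trigger ovulation. TSA was given at 10 nM from the early 2-cell stage, and the control embryos had its vehicle, DMSO. Each library was made from 3 pooled embryos, and the labels give 2 samples for each group.

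Histone deacetylases take acetyl groups off histone tails and mostly act within repressor complexes, and TSA blocks the zinc ion in their active site, so that histone acetylation builds up. Sirtuins, which remove acetyl groups with NAD, are not inhibited by TSA. The mouse embryo switches on its own genome at the 2-cell stage. Short-lived transcripts such as the Zscan4 family mark this stage, genes for ribosomes, RNA processing and translation are activated in the major wave, and maternal RNA is cleared.

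The headers and the published fold changes of this comparison point to different columns for TSA. The published changes fit the column headed 4-cell-FK866 over the column headed late-2-cell-con, and not the column headed late-2-cell-TSA. The former is called the TSA library here, and every value below rests on that reading. Because the column was identified by this fit, the direction of the published genes in it is not independent evidence of what TSA does. Values under the header as written are given for several of the results that turn on the choice.

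The steps between low values correspond to whole reads and showed 1 library of 4682639 reads in the TSA column. The control column was the sum of 2 libraries, which were separated into library A of 6523488 reads and library B of 4164896 reads. The control libraries correlated at r = 0.84 over 14646 genes on the log2(FPKM + 1) scale. The TSA library correlated at 0.70 with A and at 0.72 with B. It held 7279 genes at 1 FPKM or more, against 6326 in A and 6976 in B. Its 100 most abundant genes took 44.8% of its summed FPKM, against 29.6% and 28.9% in the controls. The 2 control libraries themselves differed by more than 2-fold in either direction at many genes, with 1514 of 8002 higher in A and 2218 higher in B. No label says whether the control libraries came from separate collections of embryos. The p-values below rest on the spread between libraries within all columns of 2 libraries, not only the control. Whether that spread covers separate collections is not known.

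The comparison asked which genes changed when deacetylases were blocked through the 2-cell stage. Most genes that build ribosomes were lower in the TSA library, splicing factors and mitosis genes were more often lower than higher, and Zscan4 and several Obox genes were lower. Transcription factors of later development, among them Vax2, Hoxd1, Lhx6 and Atoh1, had no read in either control library and 18.5 to 67.2 FPKM with TSA. On the log2(FPKM + 1) scale 2840 genes were more than 2-fold higher (30.1% of 9420) and 2796 more than 2-fold lower (29.7%), with a median difference of 0.07, which became -0.10 when columns were rescaled by the median of ratios. Of 9026 genes with both control libraries separated, 3940 lay above both (43.7%) and 2800 below both (31.0%). In pools of whole embryos, fewer expressing cells and less RNA per cell cannot be told apart.

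The direction depended on the level in the control. Higher genes had a median of 0.676 FPKM in the control and 8.08 FPKM with TSA. Lower genes had a median of 6.87 FPKM in the control and 0.181 FPKM with TSA. Among the 3144 genes at 10 FPKM or more in the control, 318 were higher (10.1%) and 1133 lower (36.0%). Among the 465 genes at 100 FPKM or more, 20 were higher (4.30%) and 182 lower (39.1%). Conversely, 976 genes had no read in the control and 1280 had none in the TSA library. A member had to be expressed on 1 side, so genes absent on 1 side differ by construction.

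In limma's voom fit on the recovered reads, 631 of 8638 genes rose (7.30%) and 329 fell (3.81%) at a Benjamini-Hochberg adjusted p under 0.05. The other 782 members could not be separated into libraries in every column and were not tested. At an unadjusted p under 0.05 the counts were 1320 and 668. All 16 libraries were fitted. With 1 TSA library the test takes its spread from the other groups, and only from columns of 2 libraries. The fit on the late 2-cell columns, given below, holds the TSA library and the control, FK866 and FK866-NMN columns of that stage. It leaves out the columns headed late-2-cell-TSA and late-2-cell-Sirt1. Without control A the counts were 363 and 249, and without control B they were 975 and 406. Of the genes named by rule, the calls of Cypt12, Ppan, Gata2, Hat1, Hoxa9, Ing2, Pramel6, Uqcrc2, Wdr75, Yeats4 and Zfp772 were lost without control A, and those of Ddt, Tfpi2, Ing2, Yeats4 and Zfp433 without control B. Fitted on the late 2-cell columns alone, 129 genes rose and 130 fell, and the calls of Ddt, Cypt12, Bola1, Ppan, Dbx1, Gata2, Hat1, Hoxa9, Ing2, Mnx1, Pramel6, Psmc4, Wdr75, Yeats4 and Zfp433 were lost. Of the genes that rose, 533 had no read in either control library, and of those that fell, 306 had no read in the TSA library.

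**Figure D1:**
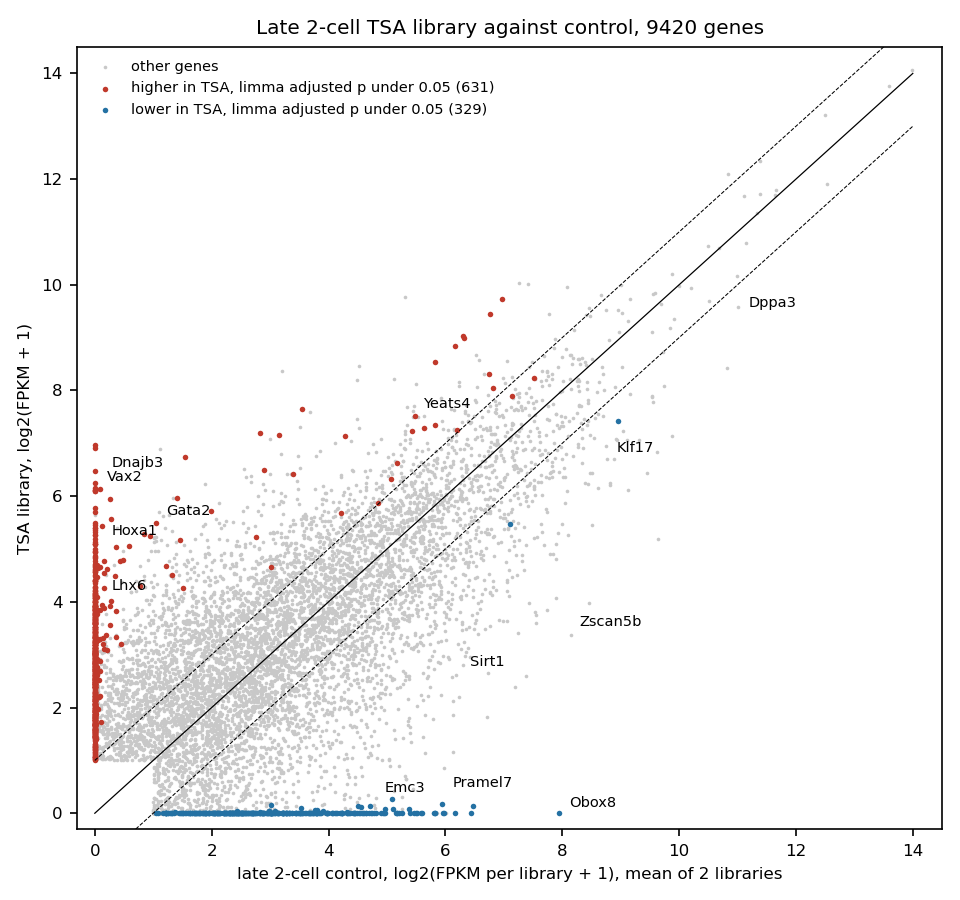
Level of each of the 9420 genes in the TSA library (vertical axis) against the mean of the 2 control libraries (horizontal axis), both as log2(FPKM + 1). Red points are the 631 genes that rose and blue points the 329 that fell in limma at an adjusted p under 0.05, and most of them lie along an axis, at or near 0 on 1 side.

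Dropouts of well-expressed genes give the scale of this. Of 2418 genes at 10 FPKM or more in both control libraries, 66 had no read in the TSA library (2.73%), against 1.17% to 12.8% in the other libraries. Of 3213 genes at 10 FPKM or more in the TSA library, 182 had no read in either control (5.66%), and the same share in the other libraries was 1.41% to 4.77%. The TSA share was thus inside the range for losses and above it for gains. Whether the few embryos in each pool play a part was not tested.

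Among the 15 largest falls were genes of the early embryo and of mitochondrial, membrane and ribosome assembly. Obox8, of the oocyte-specific homeobox family, had 216 FPKM in control A, 275.5 FPKM in B and no read with TSA. It fell at least 436-fold (limma adjusted p = 0.018). Pramel7, a PRAME-family gene known from the naive pluripotent state, had 86.5 and 89.9 FPKM in the controls and a single read, 0.1001 FPKM, with TSA. Its control to TSA ratio was 881, with a 95% counting interval from 157 to 34680. Its neighbour Pramel6 had 22.5, 20.9 and 0.103 FPKM. Both fell (adjusted p = 0.0146 and 0.0319).

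Emc3, a subunit of the complex that inserts proteins into the endoplasmic reticulum membrane, went from 61.6 and 49.1 FPKM to no read, at least 298-fold lower (adjusted p = 0.00106). Ssr2, of the translocon-associated complex, had 21.96 and 72.8 FPKM and no read with TSA. Timm10, which chaperones proteins across the mitochondrial intermembrane space, had 99.1 and 42.4 FPKM and no read, at least 98.0-fold lower. Tmem70, an assembly factor of ATP synthase, had 38.8 and 47.5 FPKM and no read. Mrpl20 of the mitochondrial ribosome had 65.5 and 55.99 FPKM against 0.128 FPKM, which is 1 read. All of these lay far below both control libraries.

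Among the other falls, Ddx56, a nucleolar helicase, had 63.0 and 19.2 FPKM and Ppan, which helps assemble the large ribosomal subunit, 51.3 and 30.0 FPKM, against no read and 0.0533 FPKM with TSA. Stmn3, a microtubule-binding stathmin, had 66.0 and 105 FPKM and no read. Alkbh2, a DNA alkylation repair enzyme, had 70.3 and 41.6 FPKM and no read. Slc19a3, a thiamine transporter, had 52.96 and 35.2 FPKM and no read, at least 220-fold lower. Prss8, Rbp7 and Spns1, which code for a membrane protease, a retinol-binding protein and a lysosomal transporter, also had no read. Of the exon bases of Alkbh2, 29.5% overlap another gene, and those of Ssr2 12.8%. Many of the 15 largest falls were also low in the early 2-cell column, with Obox8 at 0.456 FPKM and Stmn3 at 0.703 FPKM. Ppan was at 68.7 FPKM there, above its control mean of 40.6 FPKM.

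The promoters of 4 of the genes that fell to no read, chosen after the sequences were searched, are shown because each holds the letters CCGGAAG, the core of sites that ETS-family factors bind. They run from 130 bases before to 20 after the RefSeq start (GRCm38.p6), 5′ to 3′ on the gene's strand, with CCGGAAG or its reverse complement in capitals. Timm10 lies at chr2:84826891-84827040 on the plus strand, Emc3 at chr6:113531619-113531768 on the minus strand, Med17 at chr9:15279887-15280036 on the minus strand and Sf3a1 at chr11:4160224-4160373 on the plus strand.
Timm10: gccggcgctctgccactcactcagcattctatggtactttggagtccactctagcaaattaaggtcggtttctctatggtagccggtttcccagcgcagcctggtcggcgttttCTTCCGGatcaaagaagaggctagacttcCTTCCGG
Emc3: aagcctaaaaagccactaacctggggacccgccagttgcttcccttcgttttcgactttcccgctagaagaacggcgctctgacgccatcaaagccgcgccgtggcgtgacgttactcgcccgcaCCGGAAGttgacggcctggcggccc
Med17: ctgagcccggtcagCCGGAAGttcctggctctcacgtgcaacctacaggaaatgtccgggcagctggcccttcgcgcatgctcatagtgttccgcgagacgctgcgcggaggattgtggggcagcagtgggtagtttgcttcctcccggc
Sf3a1: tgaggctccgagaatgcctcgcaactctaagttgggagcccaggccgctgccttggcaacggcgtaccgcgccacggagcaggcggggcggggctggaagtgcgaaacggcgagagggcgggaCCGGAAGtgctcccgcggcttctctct

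The letters CCGGAAG, searched on both strands in the window from 250 bases before to 50 after the start, were in 27.2% of the 232 promoters of protein-coding genes that fell and were more than 2-fold lower, and in 9.0% of the 400 of genes that rose and were more than 2-fold higher. They were in 18.0% of the promoters of all expressed protein-coding genes and in 14.4% of all 9363 promoters matched. The groups differ in control level. Among genes at 1 to 10 FPKM in the control the share was 18.7% for those more than 2-fold lower, 18.6% within 2-fold and 15.0% for those higher, and at 10 to 100 FPKM it was 26.2%, 20.4% and 15.5%. The promoters of the ribosome biogenesis list held them in 36.2% of 47 and those of the splicing list in 29.2% of 48, and 3.12% of 32 homeobox promoters did. A match is a description of the sequence and says nothing of binding.

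**Figure D2:**
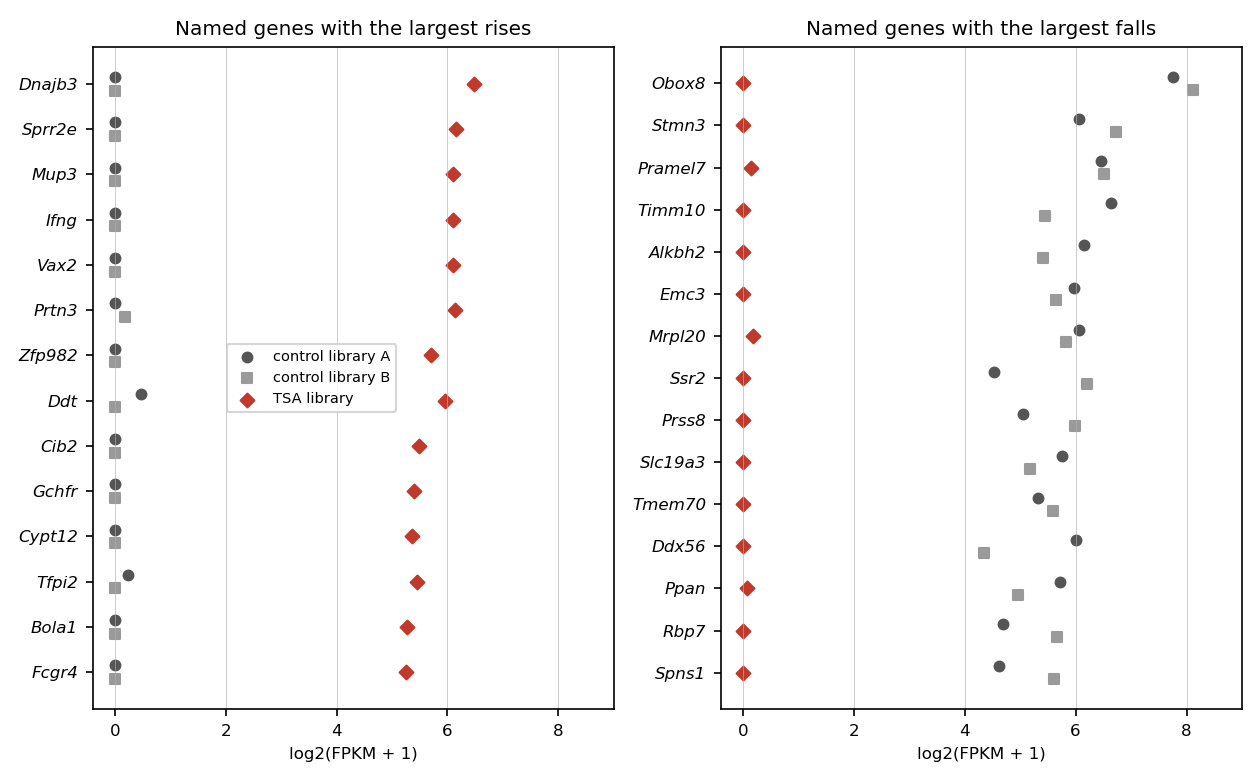
Levels as log2(FPKM + 1) of named genes among the largest rises (left) and the largest falls (right), in control library A (dark circles), control library B (grey squares) and the TSA library (red diamonds). Raised genes sit at or near 0 in both controls, and lowered genes at or near 0 in the TSA library.

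Ribosome biogenesis genes were lower as a group. Of 55 expressed ribosome biogenesis factors, 41 were more than 2-fold lower (74.5%), and 0 were higher. Over all genes 29.7% were lower, and among those at 10 FPKM or more in the control 36.0% were lower and 10.1% higher. The median difference of the list was -1.82 on the log2 scale, and that of the early 2-cell column against the same control was -1.98. By limma 4 of the 51 tested fell, Ddx56, Ppan, Wdr75 and Polr1b, and 3.81% of all genes tested did. Wdr75, of the small-subunit processome, had 24.0 and 5.49 FPKM and no read, and Polr1b, a core subunit of RNA polymerase I, 12.8 and 8.19 FPKM and no read. Nip7, needed for rRNA processing, had 187 and 115 FPKM in the controls and 9.69 with TSA. Nob1, the nuclease that finishes 18S rRNA, had 69.9, 68.1 and 2.63 FPKM. Neither of the latter passed the test (adjusted p = 0.338 and 0.20).

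Of 52 cytosolic ribosomal protein genes, 31 were more than 2-fold lower (59.6%) and 0 higher, with a median of -1.25. Over all genes 29.7% were lower and 30.1% higher, and among those at 100 FPKM or more in the control 39.1% and 4.30%. In the early 2-cell column the median of the ribosomal protein genes against the same control was -3.09. Only 21 of them could be tested, and 0 of these passed limma in either direction. Rps27 had 119 and 133 FPKM in the controls and 11.5 with TSA. Rpl28 had 105, 91.6 and 16.7 FPKM. The control libraries differed little from each other here, with a median difference between A and B of 0.00, and the median difference of the TSA library from each was -1.12. For ribosome biogenesis the medians were -1.94 against A, -1.68 against B and 0.40 for A against B. Under the header as written both lists turned the other way, with medians of 1.72 and 0.93. Ribosomal protein genes have many pseudogene copies, so reads may be split among them.

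Of 57 splicing factors, 28 were lower (49.1%, against 29.7% of all genes) and 4 higher (7.02%, against 30.1%). Among genes at 10 FPKM or more in the control 36.0% were lower and 10.1% higher. The median of the splicing factors was -1.0, and in the early 2-cell column it was -0.27. By limma 3 of 52 tested fell, against 3.81% of all genes tested. Sf3a1, of the U2 snRNP, fell from 10.9 and 13.6 FPKM to no read, at least 115-fold (adjusted p = 0.00351). Snrpa1 had 40.4, 40.7 and 2.49 FPKM without passing the test. Of 38 translation factors 14 were lower (36.8%) and 5 higher, near the 36.0% for genes at 10 FPKM or more in the control. Eif3c, of the initiation factor that holds the small subunit, had 63.7, 74.5 and 3.35 FPKM, and Eif6, which keeps the subunits apart, 126, 138 and 17.5 FPKM. Of 38 RNA polymerase II and Mediator subunits 11 were lower (28.9%), near the 29.7% of all genes, and 1 was higher. Med17, in the Mediator head, fell from 14.1 and 10.7 FPKM to no read, at least 84.4-fold (adjusted p = 0.00106).

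**Figure D3:**
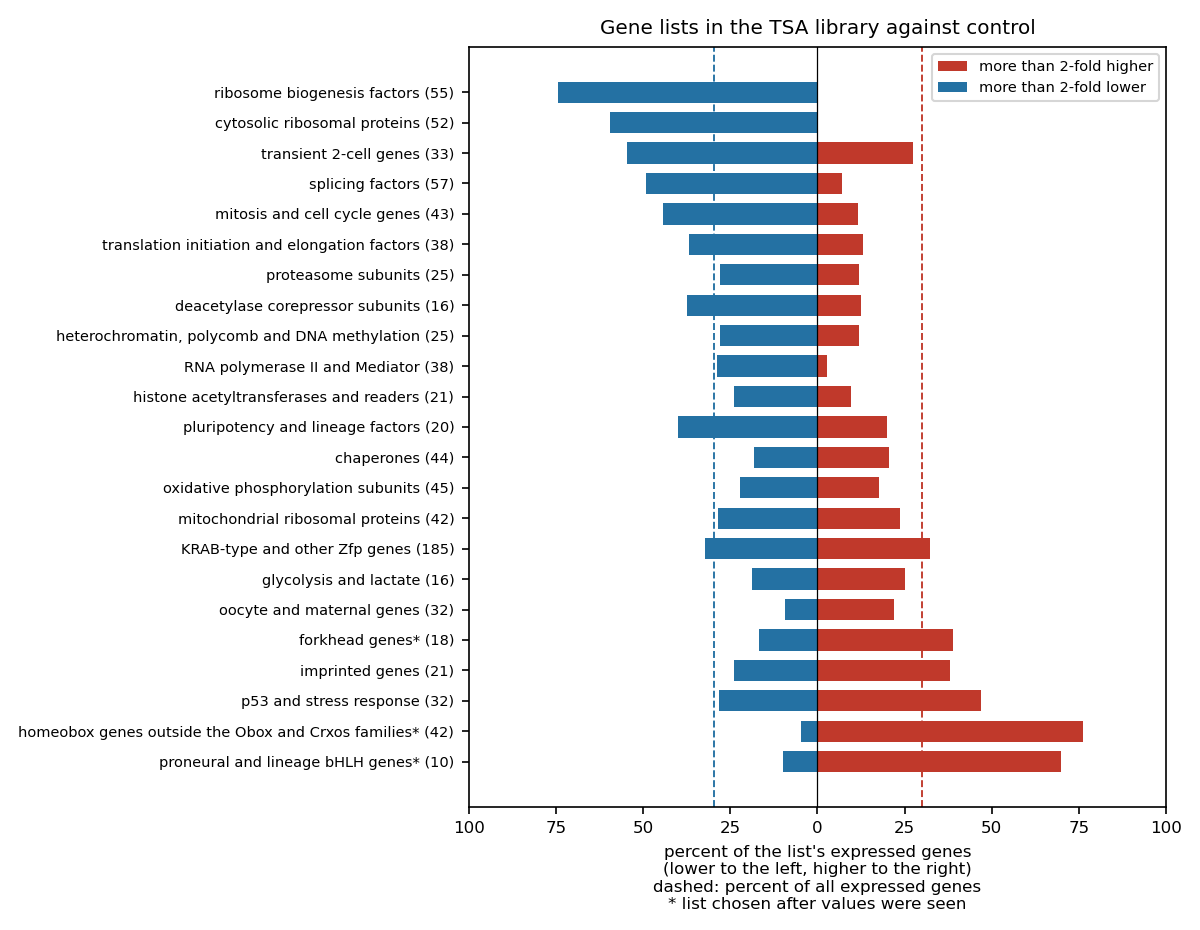
Percent of expressed genes (number in brackets), for each list with 10 or more of them, that were more than 2-fold lower (blue, left) or higher (red, right) in the TSA library, with dashed lines at the 29.7% and 30.1% found over all 9420 genes. Among the lists drawn, ribosome biogenesis factors reach furthest left, at 74.5%, and the homeobox list, chosen after its values were seen, furthest right, at 76.2%. Of its 42 genes, 21 had no read in the control and could only be higher.

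**Figure D4:**
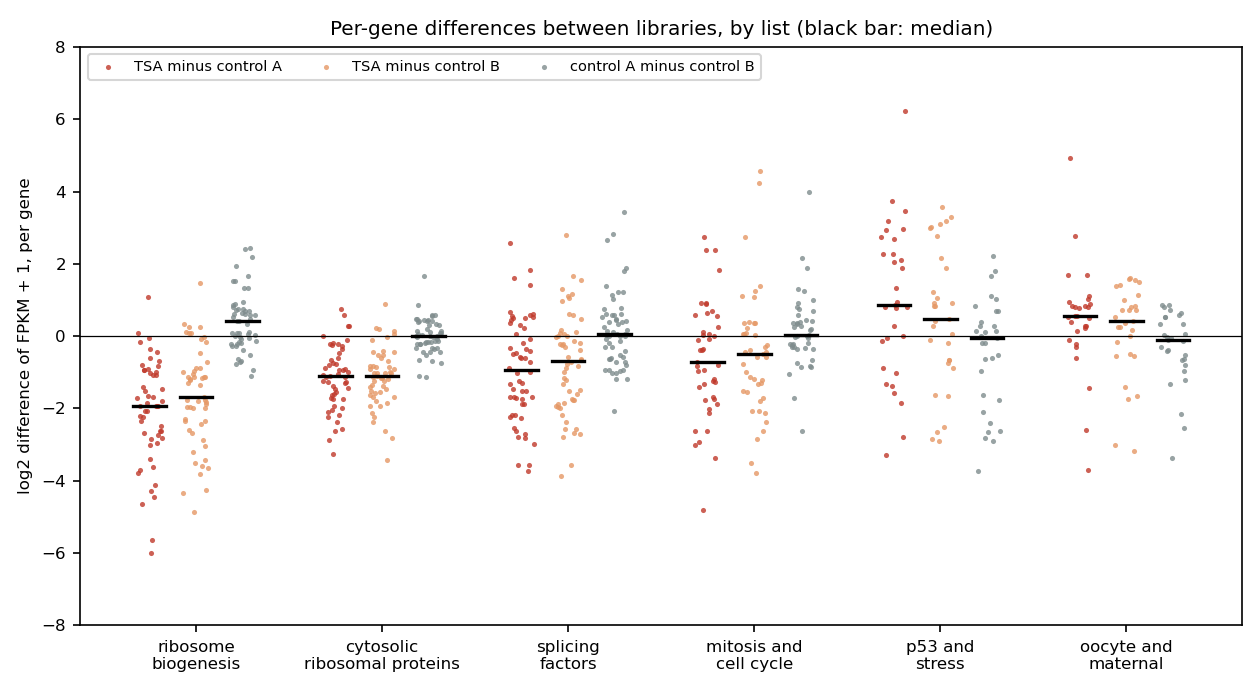
Log2 difference of FPKM + 1 for each gene of 6 lists between the TSA library and control A (red), the TSA library and control B (orange) and the control libraries (grey), with black bars at the medians. Both TSA medians for ribosome biogenesis lie well below 0, at -1.94 and -1.68, and that of the 2 control libraries is 0.40.

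The transient genes of the 2-cell stage were more often lower than higher. Of 33 expressed, 18 were more than 2-fold lower (54.5%, against 29.7% of all genes) and 9 higher (27.3%, against 30.1%). The control libraries differed at the median by 0.33, A above B. The median was -1.13 for TSA and -1.21 for the early 2-cell column, both against the control mean. Zscan4c, one of the family of short-lived 2-cell genes linked to telomere maintenance, had 126 and 47.7 FPKM in the controls and 12.5 with TSA. Zscan4d had 147, 104 and 47.3 FPKM, and Zscan4f 137, 79.3 and 16.9 FPKM. Obox6 had 185, 145 and 5.09 FPKM, and Obox3 100.7, 79.8 and 11.2 FPKM. Zscan5b had 346, 222 and 9.38 FPKM. None of these 6 passed limma, and copies of the Zscan4 and Obox families are close enough in sequence for reads to be shared.

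Other genes of the same stage were higher. Tdpoz3, of a family transcribed in the early embryo, had 0.140 and 0.656 FPKM in the controls and 30.3 with TSA, and Zfp352 67.2, 63.0 and 152 FPKM. Ddit4l had 61.8, 33.2 and 116 FPKM. Neither Tdpoz3 nor Ddit4l passed limma. Duxf3, the homeobox gene upstream of the 2-cell program, was below the minimum, at 0.589 FPKM in the control mean, 0.713 with TSA and 2.26 in the early 2-cell column.

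A cluster of like genes on chromosome 10, already high in the controls, rose. Gm4340 had 154 and 94.9 FPKM in the controls and 844 with TSA (adjusted p = 0.0193), and Gm20765 had 122, 93.6 and 698 FPKM. Gm8764, Gm21293, Gm6763 and Gm21312 rose too. The 6 genes have exon lengths of 1291 to 1427 bases and lie side by side, and reads may be shared among them. In the column headed late-2-cell-TSA they were near absent instead, at 1.82 FPKM for Gm4340 and 0.712 FPKM for Gm6763.

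Most maternal transcripts stayed within 2-fold. Of 32 oocyte genes 7 were more than 2-fold higher (21.9%) and 3 lower (9.38%). Over all genes the shares were 30.1% and 29.7%, and at 10 FPKM or more in the control 10.1% and 36.0%. The median of the oocyte genes was 0.35, and 0 of the 20 tested passed limma. Lhx8, an oocyte transcription factor, had 6.18 and 15.6 FPKM in the controls, 48.1 with TSA and 125 in the early 2-cell column. Zp2, of the egg coat, had 36.5, 37.6 and 75.9 FPKM. Dppa3, which protects the maternal genome from demethylation, was lower, at 2069, 2048 and 762 FPKM.

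None of the 3 zinc-dependent deacetylases expressed among the genes listed passed the test. Deacetylase genes outside chromosomes 1 to 11 were not listed. Hdac1 had 31.8 and 17.5 FPKM in the controls and 7.07 with TSA, a log2 difference of -1.67 (adjusted p = 0.378). Hdac2 had 17.7, 14.1 and 23.01 FPKM, a difference of 0.51 (adjusted p = 0.795). Hdac11, the class IV member, was near the minimum at 0, 0.998 and 1.11 FPKM. Sirt1, the NAD-dependent deacetylase studied in the series, had 86.6, 66.2 and 7.61 FPKM, and its limma change was -3.39 with a standard error of 1.59 (adjusted p = 0.226). Sirt4, a mitochondrial sirtuin, had 22.5, 13.8 and 0.267 FPKM. In the early 2-cell column Sirt1 was at 9.84 FPKM and Sirt4 at 20.3 FPKM.

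Of 16 corepressor subunits, 6 were lower (37.5%, against 29.7% of all genes) and 2 higher (12.5%). Ing2, which ties the Sin3 deacetylase complex to methylated histone H3, rose from 2.996 and 15.99 FPKM to 84.4 (adjusted p = 0.0263). Kdm1a, a demethylase in deacetylase complexes, had 17.7, 14.2 and 0.825 FPKM without passing the test. Of 21 acetyltransferases and readers, 5 were lower (23.8%) and 2 higher (9.52%). Yeats4, which reads acetylated histones, rose from 51.5 and 35.5 FPKM to 182 (adjusted p = 0.0426), and Hat1, which acetylates new histone H4, fell from 16.7 and 5.66 FPKM to no read (adjusted p = 0.00901). In the column headed late-2-cell-TSA they went the other way, with Yeats4 at 27.3 FPKM and Hat1 at 57.2 FPKM. Of 25 heterochromatin genes 7 were lower (28%) and 3 higher (12%), among them Kdm5b, an H3K4 demethylase, at 30.5, 30.6 and 2.27 FPKM.

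Of 43 mitosis and cell cycle genes 19 were lower (44.2%, against 29.7% of all genes and 36.0% of those at 10 FPKM or more in the control) and 5 higher, with a median of -0.60. In the early 2-cell column their median was -0.25. By limma 1 of the 34 tested rose and 1 fell. The kinase Aurka had 151 and 175 FPKM in the controls and 23.4 with TSA, and Plk1 had 57.5, 57.7 and 8.45 FPKM. Cdc20, which activates the anaphase-promoting complex, had 92.7, 120 and 22.2 FPKM. Aurka, Plk1 and Cdc20 did not pass the test. Outside this list, Ube2s, a ubiquitin-conjugating enzyme of that complex, fell from 159 and 113 FPKM to 43.7, a limma change of -1.69. Cdkn1c, a cyclin-dependent kinase inhibitor, stood at 16.9, 3.89 and 91.5 FPKM without passing the test.

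Of 32 stress and p53 genes 15 were higher (46.9%, against 30.1% of all genes), 9 were lower (28.1%, against 29.7%) and the median was 0.85. By limma 1 of the 30 tested rose, against 7.30% of all genes tested. Atf3, a stress-induced transcription factor, had 0 and 5.35 FPKM in the controls and 74.0 with TSA (adjusted p = 0.0749), and Ccng1, a p53 target, 7.46, 8.68 and 65.3 FPKM. Btg2 had 10.95, 4.90 and 56.5 FPKM. Mcl1, which protects against apoptosis, was lower at 122, 99.7 and 16.6 FPKM. Atf3, Ccng1, Btg2 and Mcl1 did not pass the test. Outside this list, Rbm38, a p53-induced RNA-binding protein, fell from 474 and 516 FPKM to 171, a limma change of -1.53.

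Developmental transcription factors were prominent among the rises. The homeobox, forkhead and bHLH lists were drawn up after values had been seen, so they are descriptions. Of 66 homeobox genes outside the Obox family that could be separated into libraries, the TSA library had 35 at 1 FPKM or more and 19 at 10 or more. Control A had 12 and 2, control B 13 and 3, the early 2-cell libraries 19 and 21 at 1 FPKM, and the other libraries 5 to 16. Summed over the list, FPKM were 582 with TSA against 85.3 and 94.8 in the controls, 387 and 403 in the early 2-cell libraries and 16.1 to 267 in the others. By limma 17 of the 40 homeobox genes tested rose, against 7.30% of all genes tested, and 0 fell. Of the 42 homeobox genes expressed, 21 had no read in the control and passed the minimum only through the TSA library. Such genes could only come out higher, so the comparison of these shares is partly fixed in advance. In the column headed late-2-cell-TSA the median differences of the homeobox and bHLH lists turned to -1.41 and -1.42. Of 15 forkhead genes, 14 were at 1 FPKM or more with TSA against 6 and 8, and of 18 bHLH genes 9 against 3 and 8.

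Vax2, which patterns the ventral eye, rose from no read in either control to 67.2 FPKM, at least 297.5-fold higher (adjusted p = 0.00074). Hoxd1, of the HoxD cluster that patterns the body axis, rose from no read to 29.8 FPKM, at least 198-fold. Hoxa9 had 0 and 1.42 FPKM in the controls and 18.6 with TSA. Lhx6, of forebrain interneurons, had no read in the controls and 19.9 FPKM, at least 341-fold higher. Lhx5, Irx5, Dbx1, Dlx2, Nkx6-1 and Mnx1, factors of neural patterning among other roles, had no read in either control and 10.5 to 17.5 FPKM. Dbx1 was also at 47 and 12.9 FPKM in the late 2-cell FK866-NMN libraries. The rest of these genes reached at most 5.12 FPKM (Dlx2) outside the TSA library.

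Outside the homeobox class, Atoh1, the proneural factor of hair cells and cerebellar granule neurons, rose from no read to 18.5 FPKM, at least 140-fold higher, and in every other library stayed below 1 FPKM. The forkhead genes Foxc2 and Foxf1, of mesoderm, rose from no read to 16.6 and 20.2 FPKM. Gata2, of blood and trophoblast, had 0 and 2.14 FPKM in the controls and 43.9 with TSA (adjusted p = 0.0146). In the column headed late-2-cell-TSA, Vax2, Lhx6 and Gata2 had no read.

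Markers of other cell types that pools could carry were counted beside these. Of 12 blood and immune markers 3 were at 1 FPKM or more with TSA, against 3 and 4 in the controls, and their summed level was 218 FPKM against 28.5 and 34.9. The globin genes Hba-a1 and Hba-a2 stood at 130 and 81.0 FPKM with TSA, against 20.4 and 19.5 and against 2.53 and 7.56 in the controls. Ptprc, Cd3e and Cd79a, which define leukocytes, had no read in the 3 libraries, and the beta globin genes Hbb-bs and Hbb-bt were below 1 FPKM. Of 8 cumulus and granulosa markers 2 were at 1 FPKM or more, with a sum of 16.5 FPKM against 0 and 5.34, and Foxl2 and Star had no read in the 3 libraries. Areg and Cyp19a1 of this list rose from no read in either control to 8.09 and 8.12 FPKM (adjusted p = 0.0374 and 0.00435). Of 6 sperm markers 2 were, with a sum of 21.3 FPKM against 10.7 and 4.08. Their part in the results was not tested.

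The promoters of 3 raised factors are given with CG pairs in capitals, over the same window of 130 bases before to 20 after the start. Atoh1 lies at chr6:64728995-64729144, Hoxd1 at chr2:74762850-74762999 and Gata2 at chr6:88193761-88193910, all on the plus strand. The median observed over expected CG ratio was 0.63 for the promoters of genes past both rules that rose, 0.76 for those that fell and 0.76 for all expressed protein-coding genes. The promoters shown lie above these medians, at 0.80 to 0.90, and so do not stand for the raised genes as a group.
Atoh1: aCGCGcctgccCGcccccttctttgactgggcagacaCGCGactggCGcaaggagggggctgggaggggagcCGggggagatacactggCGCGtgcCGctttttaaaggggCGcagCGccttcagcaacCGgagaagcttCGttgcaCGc
Hoxd1: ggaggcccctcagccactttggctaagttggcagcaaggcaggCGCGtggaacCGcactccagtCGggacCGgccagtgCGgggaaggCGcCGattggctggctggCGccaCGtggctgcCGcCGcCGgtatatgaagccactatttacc
Gata2: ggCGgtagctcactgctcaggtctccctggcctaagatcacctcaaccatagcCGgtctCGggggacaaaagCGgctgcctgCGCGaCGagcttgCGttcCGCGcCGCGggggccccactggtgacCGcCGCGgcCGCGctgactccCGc

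**Figure D5:**
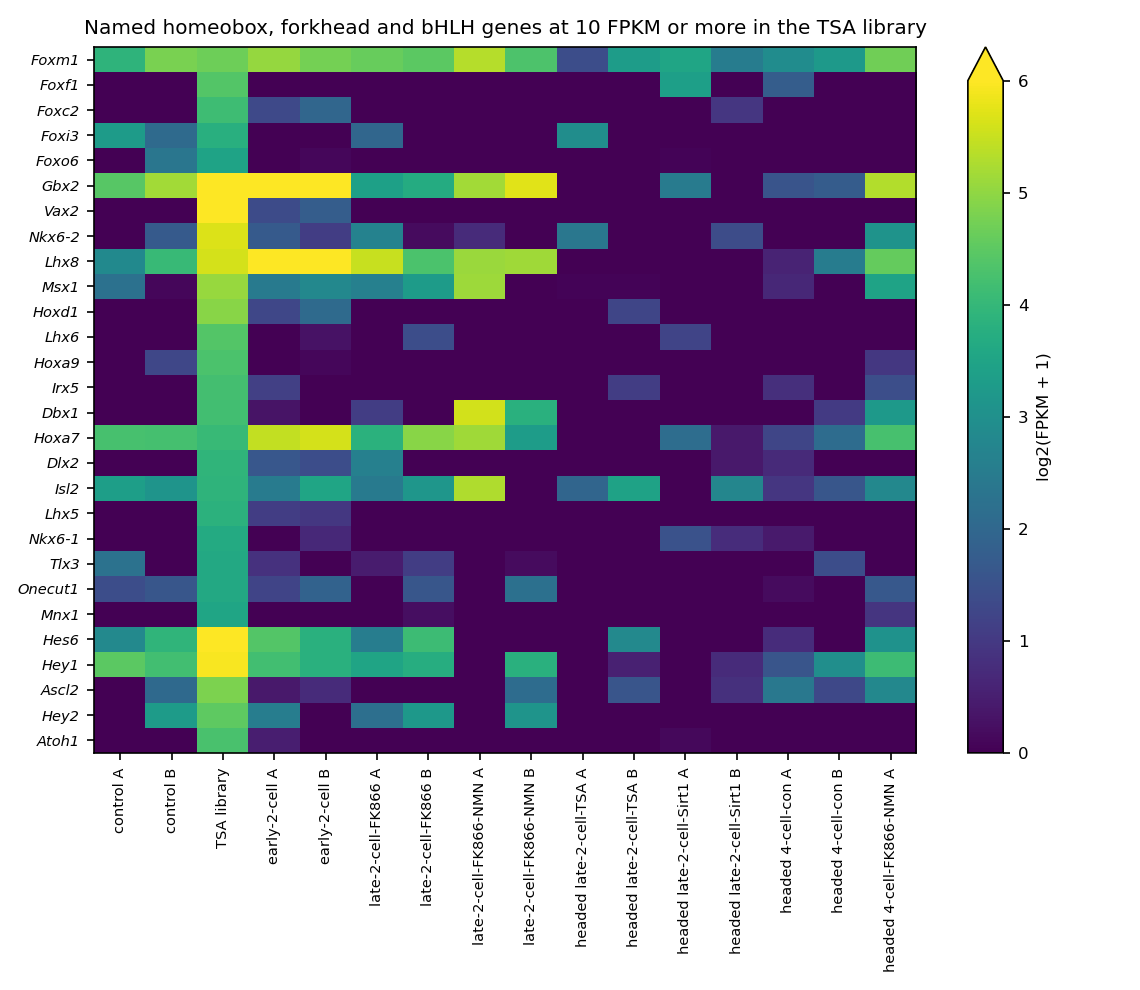
Level as log2(FPKM + 1), from dark (0) to yellow (6 or more), of reported homeobox, forkhead and bHLH genes at 10 FPKM or more in the TSA library (rows), in each of the 16 separated libraries (columns). Rows such as Vax2, Lhx6 and Atoh1 are bright in the TSA column and dark or dim in the 2 control columns.

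The largest rises also held genes known from single adult tissues. Dnajb3, a DnaJ chaperone gene of testis, rose from no read to 88.2 FPKM, at least 330-fold higher (adjusted p = 0.00106). Sprr2e of the skin barrier, Mup3 of the urinary proteins and the cytokine gene Ifng rose from no read to 70.6, 68.0 and 67.3 FPKM. Prtn3, a neutrophil protease, had 0 and 0.139 FPKM in the controls and 69.5 with TSA. Of Ifng exon bases 25.9% lie in another gene, and the counting strand is not stated.

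Zfp982, Ddt, Cib2, Gchfr, Cypt12, Tfpi2, Bola1 and Fcgr4 were also among the largest rises, at 37.2 to 60.8 FPKM. Zfp982 and Bola1 were absent from the controls but reached 92.7 and 62.2 FPKM in another column. The rest of these genes reached at most 6.05 FPKM (Ddt) in any other column. In 24 genes the TSA library was at 10 FPKM or more with every other library below 1, and the other libraries had 0 to 21 such genes each. Rhoc, a small GTPase, was the highest of these at 32.5 FPKM.

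Of the calls with a rise from an expressed control, 35 genes were at 1 FPKM or more there, and 20 at 10 FPKM or more in both control libraries. Nckap1, of the WAVE complex that nucleates branched actin, rose from 39.3 and 44.7 FPKM to 150 (adjusted p = 0.00367). E2f1, the S-phase transcription factor, rose from 96.9 and 184 FPKM to 237 (adjusted p = 0.0256), and Raly, an RNA-binding protein, from 151 and 212 FPKM to 302. The rises of E2f1 and Raly were below 2-fold on the log2(FPKM + 1) scale, at 0.75 and 0.73.

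Imprinted and pluripotency genes were mixed. Of 21 imprinted genes 8 were higher (38.1%) and 5 lower (23.8%), against 30.1% and 29.7% of all genes. H19, a maternally expressed long RNA, had 0 and 1.37 FPKM in the controls and 19.9 with TSA, and Phlda2, a maternally expressed placental growth gene, 93.0, 53.1 and 8.19 FPKM. Of 20 pluripotency and lineage factors 4 were higher (20%) and 8 lower (40%). Klf17, an early embryonic Kruppel-like factor, was more than 2-fold lower, from 426 and 434 FPKM, with a log2 difference of -1.80, and Zfp42, a marker of pluripotent cells, 14.8, 7.02 and 48.4 FPKM.

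Under the header as written, the column headed late-2-cell-TSA gave 2007 genes more than 2-fold higher and 3569 lower against the same control, with a median of -0.44. By limma 400 rose and 935 fell. Obox8, Pramel7, Emc3 and Mrpl20, which fell in the TSA library, were higher there by 1.43, 2.10, 1.21 and 1.94 on the log2 scale. In the early 2-cell column Pramel7 was at 1.23 FPKM.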

How the data were processed

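RNA-seq was run on pools of 3 embryos. Per the labels and the study's methods, the authors trimmed reads with Trim Galore, aligned them with HISAT2 to mm10, counted them with featureCounts and deposited FPKM values, 1 column per group. The authors' notes name CASAVA 1.4. Strandedness was not given in the sources used here. Columns of unmapped samples numbered 0.

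Multiplying the deposited FPKM by GENCODE M21 exon length gave whole reads for 97.6% to 97.9% of values. The 9 columns resolved into 16 libraries of 3169677 to 10003481 reads, and columns of 2 libraries were sums. Separated libraries carry no replicate number. The TSA column was identified by comparing the sign of the published changes of 1203 listed genes with each column over the control. The sign was the same for 1203 genes in the column headed 4-cell-FK866, 1096 in early-2-cell, 546 in late-2-cell-TSA and 522 to 986 in the others.

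Fold calls used log2((TSA + 1)/(control mean + 1)) above 1 or below -1. The planned limma trend fit on log2(FPKM + 1) called too many unchanged genes in simulated data. It was replaced by limma 3.58.1 (R 4.3.3) voom on the recovered reads, two-sided, with 1 term per column. The simulation modelled no dropouts, so it does not show which fit suits genes with no read on 1 side. Lower bounds used a floor of 3 reads over a group's summed totals. Intervals are 95% and cover counting error only. Named genes were protein-coding genes past both rules at 10 FPKM or more in the higher column, without clone names: the 15 with the largest rises and the 15 with the largest falls, the list members among them, and Duxf3, Sirt1 and the deacetylases. Some of these genes are not reported here. Other examples were chosen after their values were seen. Members and lists were chosen with earlier results of these data known. Promoters were from RefSeq. Python 3.11.15 was used, together with pandas 2.3.3 for tables, scipy 1.17.1 for intervals, numpy 2.4.6, and matplotlib 3.10.9 for figures.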

Additional observations from a re-analysis of the deposited data

How the results depend on the processing

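Counts of genes more than 2-fold higher and lower stayed within 1.5 times of 2840 and 2796 with a pseudocount of 0.1, no minimum, centring, rescaling, the column headed late-2-cell-TSA, and only genes beyond both controls. They were 1367 and 1294 with a pseudocount of 5, 1873 and 1622 with a minimum of 5 FPKM, and 1943 and 1861 over protein-coding genes without clone names. Without a control library they were 2790 to 3226 and 2233 to 2369. By limma, 631 rose and 329 fell. On the late 2-cell columns only the counts were 129 and 130, with the column headed late-2-cell-TSA 400 and 935, and without a control library 363 to 975 and 249 to 406. The limma trend fit, planned first and then replaced, gave 817 and 361, and with its pseudocount of 5 it gave 1031 and 364. Leaving out the FK866-NMN column, added after the data were seen, gave 854 and 405.

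Of the 62 named genes, 15 lost their call on the late 2-cell columns alone, 11 without control A and 5 without control B, and rescaling changed no call. With the column headed late-2-cell-TSA the log2 difference turned for 20 of 37 genes: Obox8 1.43, Pramel7 2.10, Timm10 1.30, Emc3 1.21, Mrpl20 1.94, Ssr2 2.75, Slc19a3 0.47, Tmem70 2.05, Ppan 1.51, Spns1 1.75, Hat1 2.41, Med17 1.30, Pramel6 1.39, Psmc4 0.85, Sf3a1 0.37, Wdr75 1.48, Zfp961 0.43, Gata2 -3.73, Yeats4 -0.73 and Hdac2 -0.08. List medians turned to 1.72 (ribosomal proteins), 0.93 (ribosome biogenesis), -1.87 (cumulus), -0.38 (blood), -1.41 (homeobox) and -1.42 (bHLH). The cause was not tested. No paired analysis was possible because the separated libraries carry no replicate number.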

Other observations

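Several groups that the text above leaves out were mixed. Over all genes, 30.1% were more than 2-fold higher and 29.7% lower. Of 185 KRAB-type and other Zfp genes 60 were more than 2-fold higher and 60 lower, and by limma 15 rose and 14 fell. Zfp772 rose from 0 and 0.0865 FPKM in the controls to 24.1 with TSA, and Zfp574, a zinc finger protein, fell from 34.97 and 24.0 FPKM to no read. Of 45 oxidative phosphorylation subunits 8 were higher and 10 lower, and 4 fell by limma, among them Uqcrc2 of complex III, from 23.01 and 6.49 FPKM to no read. Of 42 mitochondrial ribosomal proteins 10 were higher and 12 lower. Mrps31 rose from no read to 11.6 FPKM, and Mrpl20 fell.

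Of 25 proteasome subunits 3 were higher and 7 lower, and Psmc4, an ATPase of the regulatory particle, fell from 20.1 and 30.4 FPKM to 0.0987. Of 44 chaperones 9 were higher and 8 lower. Cct3, of the TRiC chaperonin, had 40.4, 41.3 and 2.11 FPKM without passing the test. Of 16 glycolysis genes 4 were higher and 3 lower, and of 9 NAD genes 2 were higher and 3 lower. Of 7 expressed genes widely raised by deacetylase inhibitors in other cells, 0 were higher and 3 lower, and Mt1, a metallothionein, had 282, 300 and 108 FPKM. Of 5 expressed histone genes 4 were lower, and of 5 sirtuins 2 were lower and 1 higher.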
